A study of Mus musculus with 8 samples.

Results

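The granulocyte genes described here are 10 transcripts of neutrophils and their precursors, measured in the liver of newborn mice: Mpo, Elane, Prtn3, Ctsg, Camp, Ltf, Ngp, S100a8, S100a9 and Chil3. They were taken by gene symbol, and each was read by 1 probe set of its own, so the members are 10 of 45037 probe sets without controls and 10 of 18193 genes with such a probe set. A further probe set is shared by Chil3 and its near-identical paralog Chil4, and it is given beside Chil3. The rule that picks the members uses names and no measured value, but the list was drawn up with earlier results of these data known.

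RNA came from single livers of 4 pups with targeted disruption of the glycerol kinase gene and 4 age-matched wild-type littermates. All were inbred C57BL/6J mice, labelled male and sampled on day of life 3, with no treatment named. The disruption is not limited to 1 tissue by anything the labels say, and no detail of the allele is given there. The RNA of each liver was read on 1 Mouse 430 2.0 array from Affymetrix, and the design text gives day 3 as the age at which hypoglycemia and acidosis appear in the knockout.

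Neutrophils carry their weapons in granules that are filled in order as the cell matures. Primary (azurophil) granules are filled first, at the promyelocyte stage, with myeloperoxidase and serine proteases, and secondary (specific) granules are filled later with lactoferrin and the cathelicidin, when transcription of the primary granule genes has fallen. Rodent liver makes blood cells before birth and for some days after it, so newborn liver holds granulocyte precursors among erythroid cells and hepatocytes. Transcription of granule genes depends on the factors PU.1 and C/EBP, of which C/EBP epsilon is needed for the secondary granule genes.

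The genes lie in a few neighbourhoods of the genome (RefSeq, GRCm38.p6). Prtn3 (chromosome 10, 79879667 to 79883174) and Elane (79886312 to 79888216) are 3137 bases apart and are read in the same direction. Camp (109847377 to 109849456), Ngp (110419808 to 110423012) and Ltf (111019292 to 111042766) are all on chromosome 9. S100a8 (90669071 to 90670034), S100a9 (90692630 to 90695721) and Chil3 (106147554 to 106167564) are on chromosome 3, Mpo (87793784 to 87804412) is on chromosome 11 and Ctsg (56099885 to 56102574) on chromosome 14. The 250 bases before the start of 5 members are printed from RefSeq, in the direction of transcription. Elane and Prtn3 are shown because their signals parted between the groups, Ltf and Ngp as secondary granule genes, and Chil3 because it had the largest difference. Capitals mark matches on either strand to GAGGAA (the core bound by PU.1), to TTGCNNAA (a C/EBP consensus) and to TATAAA (the TATA box).
Elane (chr10:79886062-79886311, plus strand): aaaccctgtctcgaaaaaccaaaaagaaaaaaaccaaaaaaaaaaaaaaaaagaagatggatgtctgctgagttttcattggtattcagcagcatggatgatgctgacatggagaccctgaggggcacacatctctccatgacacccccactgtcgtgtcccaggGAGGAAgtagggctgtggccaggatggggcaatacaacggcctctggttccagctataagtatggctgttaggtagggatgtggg
Prtn3 (chr10:79879417-79879666, plus strand): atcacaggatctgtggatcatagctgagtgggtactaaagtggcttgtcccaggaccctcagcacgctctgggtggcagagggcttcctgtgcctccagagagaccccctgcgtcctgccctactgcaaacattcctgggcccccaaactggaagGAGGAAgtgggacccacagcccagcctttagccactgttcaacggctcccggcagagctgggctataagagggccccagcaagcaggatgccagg
Ltf (chr9:111019042-111019291, plus strand): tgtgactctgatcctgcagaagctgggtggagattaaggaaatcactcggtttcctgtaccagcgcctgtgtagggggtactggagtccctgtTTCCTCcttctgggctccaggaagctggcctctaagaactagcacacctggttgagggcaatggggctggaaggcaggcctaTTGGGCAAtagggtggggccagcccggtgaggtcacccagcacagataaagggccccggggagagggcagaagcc
Ngp (chr9:110419558-110419807, plus strand): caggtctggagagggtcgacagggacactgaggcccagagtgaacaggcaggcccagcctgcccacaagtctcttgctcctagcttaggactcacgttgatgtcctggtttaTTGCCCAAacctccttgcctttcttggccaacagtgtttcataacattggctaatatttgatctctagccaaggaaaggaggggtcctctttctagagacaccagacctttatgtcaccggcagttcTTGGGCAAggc
Chil3 (chr3:106167565-106167814, minus strand): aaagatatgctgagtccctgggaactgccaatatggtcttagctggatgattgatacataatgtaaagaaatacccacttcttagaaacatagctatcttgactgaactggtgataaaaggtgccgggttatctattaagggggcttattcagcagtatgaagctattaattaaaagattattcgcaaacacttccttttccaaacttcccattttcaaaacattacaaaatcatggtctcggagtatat

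All 4 primary granule genes had GAGGAA in this window, as did 6 of the 10 members and 23.3% of 32851 mouse promoters of the same length. It lay at -85 to -80 from the start in Elane and at -95 to -90 in Prtn3. TTGCNNAA was found in 3 of the 10 members (Ngp, Ltf and S100a9) and in 9.56% of all promoters, with matches in Ngp at -138 to -131 and at -11 to -4. TATAAA was found in S100a8 and Ctsg and in 12.4% of all promoters. In S100a8 it lay at -30 to -25, and in Ctsg on the opposite strand at -237 to -232. A match is a run of letters and shows no binding. In Chil3 none of these letters lay in the window.

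The arrays differed in features other than the group labels. The median signal ran from 146.7 to 174.2, and 42.6% to 46.7% of probe sets reached a signal of 200. The array labelled wild type 4 had a signal of 10506 for Xist, the RNA of the inactive X chromosome, where the other arrays had 196 to 396. Its signal for Eif2s3y, a gene of the Y chromosome, was 1.3 where the others had 685 to 1164, so it did not match its label of male. Arrays 1 and 2 of both groups differed from arrays 3 and 4 in the transferrin receptor control, whose 3' probe set over its 5' one gave 6.50 to 6.72 against 4.21 to 4.83. For pyruvate carboxylase this ratio, which goes up as RNA breaks down, was highest on knockout 1 (7.03) and knockout 2 (4.93), against 2.06 to 3.46 on the other arrays. The transferrin receptor ratio did not set knockout 1 and 2 apart in this way, at 6.55 and 6.72 beside 6.50 and 6.53 on wild type 1 and 2. The targeted gene was not analysed here, so it did not check the group labels.

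Granulocyte transcripts were present in every liver. The lowest signal of a member on any array was 723 (Ctsg on wild type 3) and the highest was 22460 (S100a8 on knockout 1), so all 10 passed the filter, which asked for a signal of 200 or more on 4 or more arrays. Of the 10 members, 0 differed between knockout and wild type at an adjusted p under 0.05 (limma, Benjamini-Hochberg over 20395 probe sets), where 0.299% of all tested probe sets did. At an unadjusted p under 0.05 there were 3 members, Chil3, Camp and Prtn3, beside 14.4% of all tested. That count was 6 with quantile normalization, 1 with median centring, 1 without an intensity trend in the fit and 1 without wild type 4. The groups overlapped for each of the 10, and they did not overlap for 9.32% of all tested. Below 0 lay 7 of the 10 differences, beside 54.2% of all tested, with 8 below 0 under quantile normalization, where Ngp turned to -0.10. Their median was -0.22 on the log2(signal + 16) scale against -0.03 over all tested. These are bulk livers, in which fewer cells of a type and less RNA per cell cannot be told apart.

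**Figure D1:**
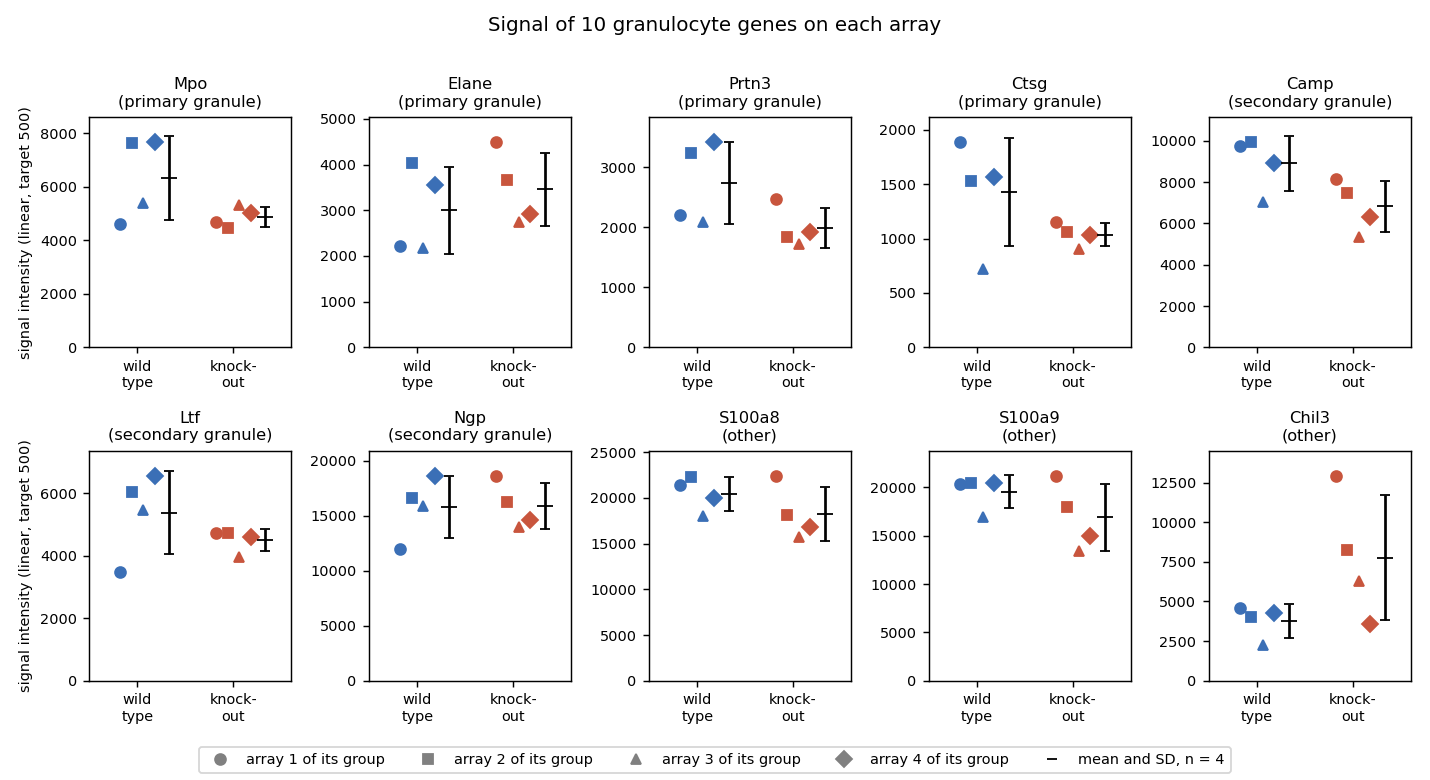
Linear signal intensity (vertical axes, each from 0) of the 10 genes on the 4 wild-type (blue) and 4 knockout (red) arrays, with marker shapes for arrays 1 to 4 and the mean with SD beside them (n = 4). The groups overlap in each panel, and the widest spread is that of Chil3 in the knockout, from 3565 to 12944.

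The primary granule genes came first in the order of maturation. Mpo, which makes hypochlorous acid from hydrogen peroxide, read 4622.5, 7652, 5393 and 7678 on wild type 1 to 4, and 4701, 4476, 5322 and 5008 on knockout 1 to 4. Wild type 2 and 4 were high, and the other 6 arrays lay together. The means were 6336 ± 1566 and 4877 ± 368 (SD, n = 4 each), a log2 difference of -0.35 ± 0.17 (knockout minus wild type, SE; limma adjusted p = 0.395). That difference was -0.24 without wild type 2 and -0.24 without wild type 4.

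Prtn3, the serine protease proteinase 3, had wild-type signals of 2206, 3236, 2092 and 3422 and knockout signals of 2480, 1836, 1731 and 1923. Again wild type 2 and 4 stood above the rest, and only knockout 1 reached into the wild-type range. The log2 difference was -0.44 ± 0.19 (SE, n = 4 each; limma adjusted p = 0.340), and its 95% interval ran from -45.1% to -0.38%. It was -0.32 without wild type 4 and -0.34 without wild type 2, and in both cases the interval took in 0.

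Ctsg, cathepsin G, another serine protease of these granules, read 1887, 1528, 723 and 1567 on wild type 1 to 4, with 1154, 1058, 905 and 1031 on knockout 1 to 4. The 4 knockout arrays lay inside the wild-type range, which wild type 3 stretched downwards. The log2 difference of -0.38 ± 0.26 (SE, n = 4 each; limma adjusted p = 0.545) therefore rested on a wide wild-type spread, and it was -0.67 without wild type 3 and -0.22 without wild type 1 (adjusted p = 0.199 and 0.723, with a range of 0.199 to 0.876 over all settings tried).

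Elane, neutrophil elastase, was the 1 primary granule gene with a difference above 0. The wild-type arrays read 2214, 4041, 2170 and 3553, and the knockout arrays 4491, 3668, 2733 and 2926. Wild type 1 and 3 were the lowest arrays and knockout 1 the highest. The log2 difference was 0.23 ± 0.24 (SE, n = 4 each; limma adjusted p = 0.701), and it was 0.44 on arrays 1 and 2 of each group and 0.03 on arrays 3 and 4. It was 0.39 without wild type 2, and 0.11, 0.10 and 0.10 without wild type 1, wild type 3 and knockout 1 in turn.

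**Figure D2:**
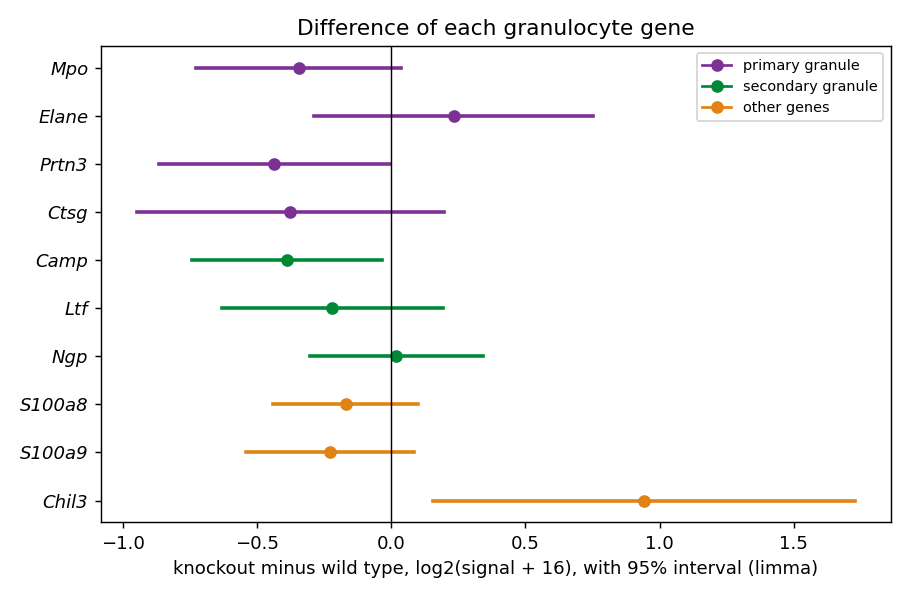
Knockout minus wild type on the log2(signal + 16) scale (horizontal axis) for each gene, with limma's 95% interval over 4 arrays per group and colours for the gene classes. The intervals of Prtn3, Camp and Chil3 leave out 0 before adjustment, with Chil3 alone of these above 0.

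Among the secondary granule genes, Camp encodes the cathelicidin, an antimicrobial peptide precursor. It read 9735, 9939, 7043 and 8910 on the wild-type arrays and 8139, 7494, 5329 and 6323 on the knockout arrays. In each group array 3 was lowest, and the highest knockout signal lay above only wild type 3. The means were 8907 ± 1320 and 6821 ± 1247 (SD, n = 4 each), a log2 difference of -0.39 ± 0.16 (SE; limma adjusted p = 0.306). The difference was alike within the array pairs, -0.33 on arrays 1 and 2 and -0.45 on arrays 3 and 4.

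Ltf, the iron-binding lactoferrin, went from 3489, 6027, 5448 and 6566 on wild type 1 to 4 to 4712, 4735, 3975 and 4601 on knockout 1 to 4. Wild type 1 was the lowest array of all 8, and the other 3 wild-type arrays lay above every knockout array. The log2 difference was -0.22 ± 0.19 (SE, n = 4 each; limma adjusted p = 0.634), 0.04 on arrays 1 and 2 and -0.48 on arrays 3 and 4. It was -0.42 without wild type 1 and -0.11 without wild type 4.

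Ngp, the neutrophilic granule protein, which is related to the cathelicidins, stood at 11928, 16619, 15835 and 18646.5 on the wild-type arrays, beside 18586, 16282, 13955 and 14627 on the knockout arrays. Here too wild type 1 was lowest, and the groups spanned nearly the same range. The log2 difference was 0.02 ± 0.15 (SE, n = 4 each; limma adjusted p = 0.969), with a 95% interval from -18.9% to 26.7%.

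S100a8 and S100a9 pair up as calprotectin, which fills the neutrophil cytosol and binds zinc and calcium. S100a8 stood at 21466, 22324, 18057 and 20002 in wild type, beside 22460, 18193, 15741 and 16785 on the knockout arrays. S100a9 stood at 20363, 20431, 16994 and 20443 in wild type, beside 21234, 18001, 13443 and 14956.5 on the knockout arrays. For both, knockout 1 was the highest of all arrays and knockout 3 the lowest, and the array labelled 3 was the lowest of each group. The log2 differences were -0.17 ± 0.12 and -0.23 ± 0.14 (SE, n = 4 each; limma adjusted p = 0.567 and 0.498), and the 95% interval of S100a8 ran from -26.3% to 7.2%. Without knockout 1 they were -0.27 and -0.34, and without knockout 3 they were -0.10 and -0.12. The difference of S100a9 was -0.06 on arrays 1 and 2 and -0.39 on arrays 3 and 4.

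Chil3, a chitinase-like protein also called Ym1 that neutrophil precursors and some macrophages secrete, had the largest difference and the largest spread. On wild type 1 to 4 it read 4612, 3997, 2230 and 4253, but on knockout 1 to 4 it read 12944, 8254, 6296 and 3565. Knockout 1, 2 and 3 lay above every wild-type array, and knockout 4 lay below 3 of the 4. The means were 3773 ± 1059 and 7765 ± 3952 (SD, n = 4 each), 2.06 times as high in the knockout.

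On the log2 scale the difference of Chil3 was 0.94 ± 0.36 (SE; limma adjusted p = 0.267), and its 95% interval ran from 11.4% to 231% higher. The probe set shared with Chil4 had the same order in the knockout, 5503.5, 3293, 3051 and 1913, beside 1924, 1847, 1147 and 2152 in wild type (log2 difference 0.89 ± 0.30; limma adjusted p = 0.211). Since these paralogs are near-identical, the part of each in the signal was not tested. The Chil3 difference was 1.26 on arrays 1 and 2 and 0.62 on arrays 3 and 4, and 0.38 with knockout 1 and 2, the arrays of highest pyruvate carboxylase ratio, both left out. With arrays 1 and 2 against 3 and 4 as a block and without wild type 4 it was 1.19 (adjusted p = 0.0562, with a range of 0.0562 to 0.710 over all settings tried).

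The summed signals of the Kupffer cell and macrophage markers and of the hepatocyte markers were highest on knockout 1, as Chil3 was. This was not particular to these cells. The sums of progenitor markers, of other neutrophil granule and secreted proteins and of granulocyte transcription factors were also highest there. The sums of the megakaryocyte, B lymphoid and cell division markers, and of those of eosinophils, basophils and mast cells, were lowest on knockout 1. The summed signal of 11 markers of Kupffer cells and macrophages, all 11 of them tested, was 25106 to 36988 in wild type and 26421 to 44952 in the knockout, with knockout 1 highest and 6 of the 11 differences above 0. Their median difference was 0.39 on arrays 1 and 2 and -0.17 on arrays 3 and 4. The marker of smallest p, Vsig4, a complement receptor of Kupffer cells, had 1306, 1550, 1407 and 1638 on wild type 1 to 4, beside 3427, 2240, 1647 and 1657 on knockout 1 to 4, without overlap (log2 difference 0.54 ± 0.22; limma adjusted p = 0.310). The gap between the groups was narrow, 1647 over 1638. Of the 11 markers 5 lay below 0, such as Cd68 at -0.34 ± 0.19 and Adgre1 at -0.15 ± 0.14. The hepatocyte markers, 6 of 8 measured, summed to 90665 to 116781 in wild type and to 105786 to 151927 in the knockout, again highest on knockout 1. All 6 differences lay above 0, with 0 called (smallest limma adjusted p = 0.0674). Their median difference was 0.48 on arrays 1 and 2 and -0.06 on arrays 3 and 4. None of the measured Kupffer cell, macrophage and hepatocyte markers lay below 200 on all arrays. The part of these cells, or of RNA quality, in the Chil3 values was not tested.

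**Figure D3:**
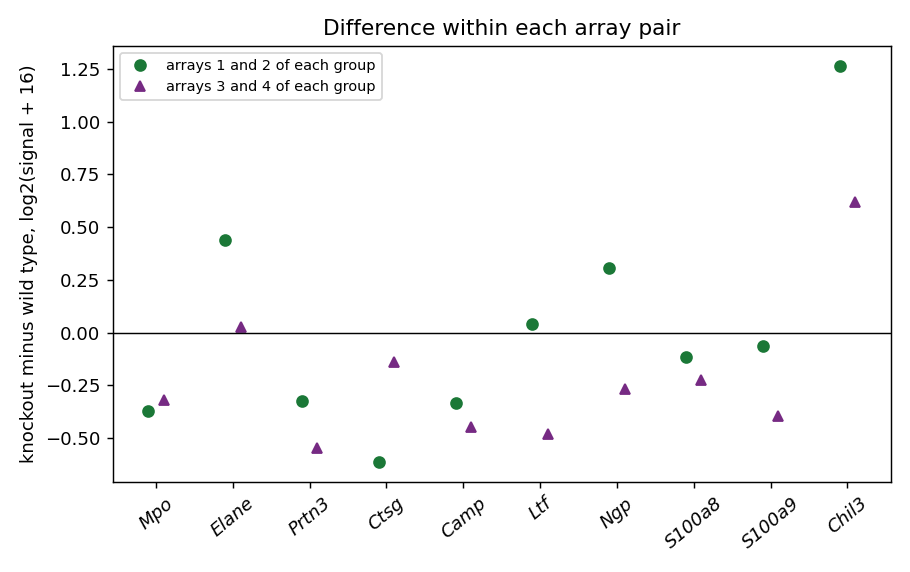
Knockout minus wild type on the log2(signal + 16) scale (vertical axis) for each gene, computed within arrays 1 and 2 of each group (circles) and within arrays 3 and 4 (triangles). Ltf and Ngp lie above 0 in the first pair and below it in the second, and Chil3 lies above 0 in both, at 1.26 and 0.62.

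Primary and secondary granule genes were then set against each other, as the order of maturation asks. The median difference was -0.36 for the 4 primary granule genes, 3 of them below 0, and -0.22 for the 3 secondary granule genes, 2 of them below 0, with -0.17 for the remaining 3. The mean log2 level of the primary genes minus that of the secondary genes was -1.53, -1.50, -2.03 and -1.56 on wild type 1 to 4 and -1.67, -1.80, -1.60 and -1.69 on knockout 1 to 4. Only its change between arrays can be read, since probe sets differ in brightness. The group means were -1.66 ± 0.25 and -1.69 ± 0.08 (SD, n = 4 each), a difference of -0.03 that is smaller than the spread of either group. Wild type 3 held the lowest value and the other 3 wild-type arrays the 3 highest.

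The sign of that difference depended on the setting. It was 0.03 with quantile normalization, -0.22 on arrays 1 and 2 and 0.15 on arrays 3 and 4, and without single arrays it ran from -0.16 to 0.02. With S100a8, S100a9 and Chil3 counted among the secondary genes it was -0.22. By array, the primary genes stood 0.31 and 0.30 above the wild-type mean on wild type 2 and 4, and -0.46 on wild type 3 and -0.37 on knockout 3 were the lowest. The secondary genes were highest on the same 2 wild-type arrays, at 0.16 and 0.20, and lowest on knockout 3 at -0.43.

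**Figure D4:**
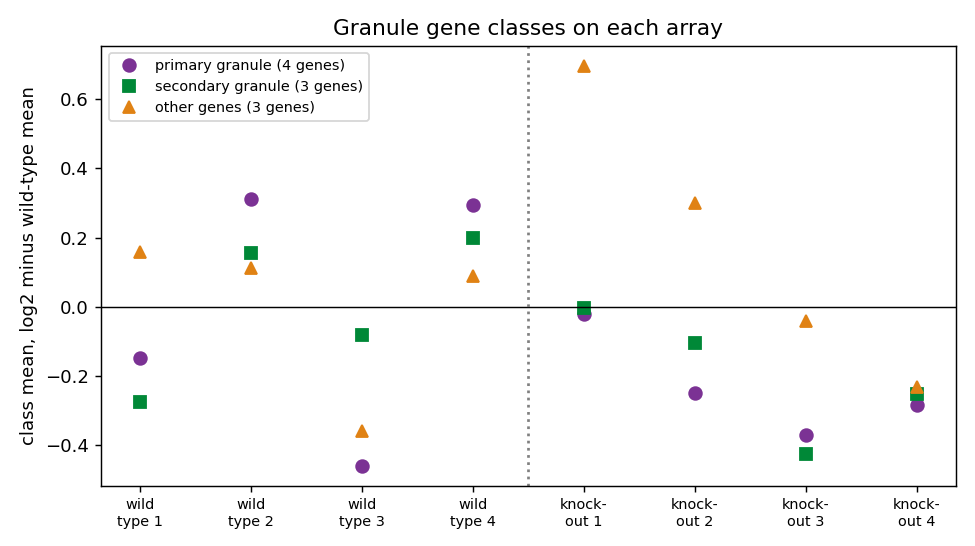
Mean log2(signal + 16) of the primary, secondary and remaining genes on each array, minus the mean of the 4 wild-type arrays (vertical axis), with the groups parted by a dotted line. Primary and secondary classes lie farthest apart on wild type 3, and the remaining genes rise to 0.70 on knockout 1.

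Within the primary class, the neighbours Elane and Prtn3 parted. The signal of Elane over that of Prtn3 was 1.003, 1.25, 1.04 and 1.04 on wild type 1 to 4 and 1.81, 2.00, 1.58 and 1.52 on knockout 1 to 4. The 4 knockout ratios lay above the 4 wild-type ratios, 1.73 ± 0.22 against 1.08 ± 0.11 (SD, n = 4 each). The log2 difference of the pair was 0.67 higher in the knockout, 0.76 on arrays 1 and 2 and 0.57 on arrays 3 and 4, and between 0.59 and 0.74 without any single array. The highest ratios were on knockout 1 and 2, and with both left out the value was 0.52.

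This pair was chosen after its values were seen, from 45 pairs of members, and was given no test. In 5 of the 45 pairs (11.1%) the groups did not overlap: Elane with Prtn3 and with Camp, and Chil3 with Ctsg, Camp and S100a9. The share over pairs of all tested genes was not computed, so this count is not read as particular to the members. A ratio within an array shows unequal change and not which of the pair changed, and the separate values of Elane and Prtn3 did not pass the threshold.

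**Figure D5:**
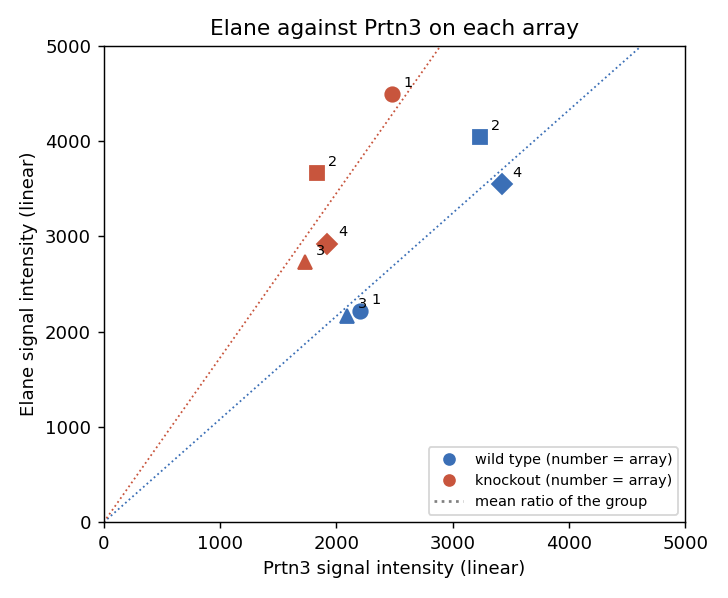
Signal intensity of Elane (vertical axis) against Prtn3 (horizontal axis), both linear from 0, with wild type in blue, knockout in red and array numbers beside the points. The dotted lines have the mean ratio of each group, 1.08 and 1.73, and the knockout arrays lie above the wild-type line.

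Other genes of granulocyte biology were read from lists, none of which held a called gene. Of 20 further granule and secreted proteins, 18 were measured and 17 tested, and 0 rose and 0 fell, with a median of -0.12 and 13 below 0. Anxa1, the anti-inflammatory annexin A1, went from 4751 ± 751 to 3402 ± 366 without overlap (log2 difference -0.47 ± 0.15 SE, n = 4 each; limma adjusted p = 0.190). Ms4a3, a membrane protein of granulocyte-monocyte progenitors, stood at -0.40 ± 0.16, and Mmp9, the gelatinase of tertiary granules, at -0.39 ± 0.17. Of the NADPH oxidase, which makes superoxide, 5 of 6 subunits were measured, all 5 lay below 0 and 0 passed. Cyba, its membrane subunit p22phox, went from 2488 ± 407 to 1704 ± 170 without overlap (-0.53 ± 0.15; limma adjusted p = 0.150), beside Ncf4 at -0.40 ± 0.19 and Cybb at -0.14 ± 0.17.

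Transcription factors of granulocytes had 9 of 10 measured, 8 tested and 0 called, with a median of 0.13. Cebpd, which is also induced in hepatocytes in the acute phase response, read 601, 443, 438 and 631 on wild type 1 to 4, beside 3134, 1502, 1482 and 910 on knockout 1 to 4. The groups did not overlap, and knockout 1 was highest, as for Chil3 (log2 difference 1.58 ± 0.31 SE, n = 4 each; limma adjusted p = 0.0712). The related Cebpb stood at 0.65 ± 0.29, and Irf8, which favours monocytes over granulocytes, at -0.46 ± 0.18. Cebpe was not analysed here, and Gfi1, a repressor needed for neutrophil formation, lay below 200 on all arrays.

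Receptors and adhesion molecules had 9 of 12 measured, 8 tested and 0 called, with a median of -0.13. Cxcr4, which keeps granulocyte precursors in the marrow niche, read 730, 600, 625 and 758 on wild type 1 to 4, beside 222.5, 449, 482 and 518 on knockout 1 to 4. The groups did not overlap (log2 difference -0.74 ± 0.24 SE, n = 4 each; limma adjusted p = 0.203). Itgam, an integrin chain, stood at -0.41 ± 0.23 and Csf3r, the receptor for the granulocyte growth factor G-CSF, at -0.26 ± 0.15, and Cxcr2 lay below 200 on all arrays. All 12 cytokines and chemokines were measured, 7 were tested and 0 called, with a median of -0.05. Csf1 stood at -0.36 ± 0.22, Cxcl12, the ligand of Cxcr4, at -0.28 ± 0.20 and Kitl, the ligand of Kit, at 0.30 ± 0.23. Csf3, Csf2, Cxcl2, Cxcl5 and Il6 lay below 200 on all arrays.

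The genes most like each class were ranked among 10866 other tested genes by Pearson's r over the 8 arrays, as a description. The arrays shared by all genes make such values high, and groups and array pairs add to them. For the mean of the primary granule genes the 6 highest were Tyrobp (r = 0.93), Nin (0.92), H2-T3 (0.92), Il18bp (0.91), Coro1a (0.90) and Itga2b (0.90). For the secondary granule genes they were Ppp2r1a (0.98), Slc40a1 (0.97), Lcp1 (0.97), Alkbh6 (0.96), Smad1 (0.96) and Fcer1g (0.95). The lists share no gene among these 6 and 6.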

How the data were processed

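The authors deposited linear signal intensity from GCOS 1.2 at default settings, with each array scaled to target 500, per the labels. That scaling was kept. Groups came from the sample titles. After 64 controls were left out, probe sets were named from the platform annotation, updated by Entrez identifier through a RefSeq gene table: 34945 had 1 gene, 932 several and 9160 none. Tested were probe sets at 200 or more on 4 or more arrays, on log2(signal + 16) with limma 3.58.1 in R 4.3.3 (eBayes with an intensity trend, two-sided, Benjamini-Hochberg). Precision is limited by having 8 arrays (median standard error 0.19). The labels name separate livers, and p-values measure the spread between them.

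The members and lists were chosen with earlier results of these data known. Named are all 10 members, up to 3 genes of smallest p in each granulocyte list, and the 6 genes most like each class. Vsig4, F13a1, Mcpt8, Cpa3 and Prg2, of marker lists, were added after their values were seen. A gene is read by its brightest probe set with no other gene. Markers were listed for Kupffer cells, monocytes, eosinophils with basophils and mast cells, erythroid cells, megakaryocytes, B lymphoid cells, progenitors, hepatocytes and dividing cells. Replicate numbers were not used to pair the groups, because the labels do not say that they pair the animals. With group means removed, same-numbered arrays 1 to 4 correlated at 0.22, 0.40, 0.34 and 0.05, which does not settle the pairing. The fit was tested on simulated data. Alternatives were other pseudocounts, filters, scalings, blocks and arrays left out. Promoter letters are RefSeq's, searched with Python 3.11.15.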

Additional observations from a re-analysis of the deposited data

Results flagged for a closer look

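In 28 groups of 4 arrays, for the 10 members and 4 values derived from them, 3 had a sample far from the others by Dixon's criterion, which chance gives in about 5% of groups. For S100a9 it was wild type 3, at a signal of 16994 against 20363 to 20443 on the other wild-type arrays. The level of primary minus secondary granule genes was -2.03 on wild type 3, against -1.56 to -1.50 on the other 3. The log2 difference of Elane and Prtn3 was 0.32 on wild type 2, against 0.00 to 0.05 on the other wild-type arrays, and still below the lowest knockout value of 0.60.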

How the results depend on the processing

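In all 22 other settings 0 of the 10 members were called. The 10 differences kept their sign in 213 of 220 comparisons with these settings. Ngp changed sign with quantile normalization (-0.10), on arrays 3 and 4 alone (-0.27), without knockout 1 and 2 together (-0.12, added after seeing the data), without wild type 1 (-0.11) and without knockout 1 (-0.06), and over all single arrays left out it ran from -0.11 to 0.11. Ltf changed sign on arrays 1 and 2 alone (0.042), and Elane without knockout 1 and 2 together (-0.027). The cause was not tested.

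The median of the secondary granule genes was 0.042 on arrays 1 and 2 alone and -0.45 on arrays 3 and 4 alone. Primary minus secondary was -0.22 with S100a8, S100a9 and Chil3 added to the secondary genes. Each member had 1 probe set, so the mean over probe sets gave no other value. The 61 calls over all probe sets (30 higher, 31 lower) became 46 with median centring (29 and 17), 21 with no filter, 22 with a signal of at least 100, 18 without the intensity trend, 30 on arrays 1 and 2, 2 on arrays 3 and 4 and 3 without knockout 1 and 2. With arrays 1 and 2 against 3 and 4 as a block there were 184, and 154 without wild type 4 as well. Leaving out single arrays gave 2 (wild type 2, wild type 3, knockout 2 or knockout 3) to 334 (knockout 4), with 6 without wild type 4 and 22 without knockout 1. With the replicate block there were 56 calls, though the labels do not say whether the numbers pair the animals. Of the 4 wild-type arrays, 2 correlated best with the knockout array of their own number. Median centring moved the median of all tested named probe sets by under 0.1, from -0.03 to 0.06.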

Other observations

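Of 8 markers of eosinophils, basophils and mast cells, 7 were measured and 3 were tested, with 0 called. All 7 lay below 0 with a median of -0.44, which was -0.60 on arrays 1 and 2 and -0.13 on arrays 3 and 4. Of these, Prg3, Ms4a2 and Fcer1a lay below 200 on all arrays. Mcpt8, a protease of basophils, read 209, 260, 226 and 366 on wild type 1 to 4, beside 149, 148, 90.2 and 137 on knockout 1 to 4, without overlap (log2 difference -0.93 ± 0.26 SE, n = 4 each; limma adjusted p = 0.141). Mcpt8 passed the filter through the wild-type arrays alone, since every knockout signal was below 200. A filter passed in this way favours a fall in the knockout, so neither the p nor the lack of overlap is read as support. Cpa3, the mast cell carboxypeptidase, stood at -0.44 ± 0.22 and Prg2, the eosinophil major basic protein, at -0.13 ± 0.25. The summed signal of the 7 was 1099 to 1413 in wild type and 761.8 to 1268 in the knockout.

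The other blood lists also held 0 called genes. All 5 measured megakaryocyte markers lay below 0 (median -0.24), as did all 6 B lymphoid markers (-0.47), 7 of 8 erythroid markers (-0.10) and 4 of 5 progenitor markers (-0.06). The erythroid median was -0.43 on arrays 1 and 2 and 0.24 on arrays 3 and 4. Of 3 measured monocyte markers 1 was tested, F13a1, at 0.25 ± 0.21, and the other 2 lay below 0 and did not pass the filter. The 9 cell division genes all lay below 0 (-0.40), with medians of -0.78 on arrays 1 and 2 and -0.02 on arrays 3 and 4.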
